A study of Mus musculus with 40 samples.

Results

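Trimethylation of lysine 9 of histone H3 (H3K9me3) covered 4403 regions in naive wild-type (WT) CD4 T cells that overlapped no H3K9me3 region of WT T helper 2 (Th2) cells. They were chosen as the naive WT regions on chromosomes 1 to 19 and X that share not 1 bp with the Th2 WT list, out of 9652 naive WT regions, and the other 5249 regions are called shared regions here. Both lists served for the choice, so the presence of these regions in naive WT and their absence from Th2 WT is a definition and not a result. Absence holds against the Th2 WT list alone: 3546 of the 4403 regions (80.5%, exact 95% binomial interval 79.3 to 81.7) overlapped an H3K9me3 region of Th2 cells without Suv39h1. They are therefore called Th2 WT-absent regions below, and not naive-specific ones.

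All cells were CD4+ T cells from mouse spleen, naive on day 0 or cultured for 6 days as Th2 cells. The Th2 culture held IL-4 at 50 ng/mL, plate-bound anti-CD3 at 10 ug/mL, soluble anti-CD28 at 1 ug/mL and an antibody to IFN-gamma, and from day 3 IL-2 at 30 IU/mL in place of the antibodies to CD3 and CD28. WT and Setdb1-/- mice were on the C57BL/6 background, while the sources used here do not state the background of the Suv39h1-/- mice, the Setdb1 allele or the driver of its deletion. Each H3K9me3 list stands for 2 samples, except that of naive Setdb1 knockout (KO) cells, which stands for 1, and there is a single list per condition. RNA was compared in 4 naive WT, 3 naive Setdb1 KO, 3 Th2 WT and 3 Th2 Setdb1 KO libraries.

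H3K9me3 is a mark of silenced chromatin that is bound by HP1 proteins. SUV39H1 places it mainly on heterochromatin around centromeres and on repeats, and SETDB1 is brought by TRIM28 (KAP1) and KRAB zinc finger proteins to endogenous retroviruses and to selected genes. H3K4me1 marks enhancers, and H3K27ac and accessibility to transposase (ATAC) mark enhancers and promoters in use. Their lists are called active lists below for short, although H3K4me1 alone does not show use. A region that lies in such a list as well as in an H3K9me3 list combines marks that are usually apart. Th2 cells secrete IL-4, IL-5 and IL-13 under the transcription factor GATA3, and naive cells are quiescent cells that have not met antigen.

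Few Th2 WT-absent regions lay on a gene start, and the promoters below are shown because RNA of their genes, given further on, was measured beside the regions that cover them. Each is the 250 bases before a RefSeq transcription start (GRCm38.p6, the assembly of the mm10 coordinates), 5′ to 3′ on the gene's strand. Each of these windows, counted with the 50 bases after the start, lay wholly inside a Th2 WT-absent region. Capitals mark CG, a motif whose matches are the same on both strands.
Ptprs, chr17:56476481-56476730, minus strand: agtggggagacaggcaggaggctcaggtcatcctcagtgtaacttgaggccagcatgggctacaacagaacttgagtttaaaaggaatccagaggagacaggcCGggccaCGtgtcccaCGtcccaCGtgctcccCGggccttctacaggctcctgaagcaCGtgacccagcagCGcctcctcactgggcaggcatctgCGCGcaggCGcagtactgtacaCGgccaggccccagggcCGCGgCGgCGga
Nectin2, chr7:19749574-19749823, minus strand: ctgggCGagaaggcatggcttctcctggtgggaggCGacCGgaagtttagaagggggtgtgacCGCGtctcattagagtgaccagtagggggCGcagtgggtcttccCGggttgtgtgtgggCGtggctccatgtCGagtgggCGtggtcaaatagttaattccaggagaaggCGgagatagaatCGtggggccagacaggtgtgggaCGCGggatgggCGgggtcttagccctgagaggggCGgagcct
Pdzd8, chr19:59345781-59346030, minus strand: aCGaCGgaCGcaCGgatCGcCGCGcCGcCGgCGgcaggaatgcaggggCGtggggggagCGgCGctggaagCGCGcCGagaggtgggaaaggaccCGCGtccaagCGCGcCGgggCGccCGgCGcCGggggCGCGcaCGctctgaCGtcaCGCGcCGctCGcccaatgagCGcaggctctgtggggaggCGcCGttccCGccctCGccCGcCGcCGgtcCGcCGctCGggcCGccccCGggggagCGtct
H3f4, chr11:58961461-58961710, plus strand: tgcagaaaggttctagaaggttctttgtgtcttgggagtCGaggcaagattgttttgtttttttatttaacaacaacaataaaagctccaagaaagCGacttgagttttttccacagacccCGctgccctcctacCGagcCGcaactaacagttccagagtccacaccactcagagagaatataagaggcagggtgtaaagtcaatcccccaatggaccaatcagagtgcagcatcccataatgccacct
Ipcef1, chr10:7023186-7023435, minus strand: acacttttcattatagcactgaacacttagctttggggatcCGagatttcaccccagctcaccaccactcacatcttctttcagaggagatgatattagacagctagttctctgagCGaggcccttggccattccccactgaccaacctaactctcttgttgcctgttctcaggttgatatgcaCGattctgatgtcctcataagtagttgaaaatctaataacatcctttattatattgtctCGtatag
Pfdn2, chr1:171344704-171344953, plus strand: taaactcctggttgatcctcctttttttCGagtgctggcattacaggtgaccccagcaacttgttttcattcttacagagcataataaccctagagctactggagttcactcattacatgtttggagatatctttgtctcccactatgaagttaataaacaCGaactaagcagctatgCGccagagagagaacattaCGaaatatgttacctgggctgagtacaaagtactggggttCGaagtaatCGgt

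Ptprs encodes a receptor tyrosine phosphatase, Nectin2 a cell adhesion protein, Pdzd8 a protein of the endoplasmic reticulum membrane, Ipcef1 a partner of cytohesin exchange factors (the start shown is an internal one) and Pfdn2 a subunit of the prefoldin chaperone. H3f4 is listed as a histone H3 gene. The sequence of Pdzd8 held 47 CG and 80% G or C, that of Nectin2 16 CG, of Ptprs 15, of Pfdn2 6, of H3f4 5 and of Ipcef1 4. Among all 62 promoter windows that a Th2 WT-absent region touched, of 58 genes, 53.2% held at least 10 CG and the median was 14. Of 97 windows touched by shared regions 25.8% did (median 4), and of all 32619 windows of that length 43.8% (median 7).

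A pair of microRNA genes also lay under these regions, shown with the seed (bases 2 to 8) in capitals, from RefSeq.
mmu-miR-101c, chr9:3038680-3038698, minus strand: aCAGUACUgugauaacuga
mmu-miR-1970b-5p, chr16:57610786-57610809, plus strand: uAUGUCACugggcauuggcuuuga
Their seeds differ, and no level of either microRNA was measured here.

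The Th2 WT-absent regions were the shorter ones of the naive list. Their median width was 750 bp (300 to 29350), against 1100 bp for shared regions, and together they covered 4.57 Mb against 9.07 Mb. The authors' score had a median of 38.9 against 44, on a scale that the sources used here do not state. The share of naive regions absent from Th2 WT was 61.3% at scores of 13 to 20, 43.4% at 40 to 50 and 9.4% (33 of 351) at 60 and above. By width it was 65.2% under 500 bp and 11% (30 of 272) from 5000 bp. These values describe the lists the choice was made from and carry no test. Members were thus selected on the presence of a called region, a measured value, in the 2 lists.

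**Figure D1:**
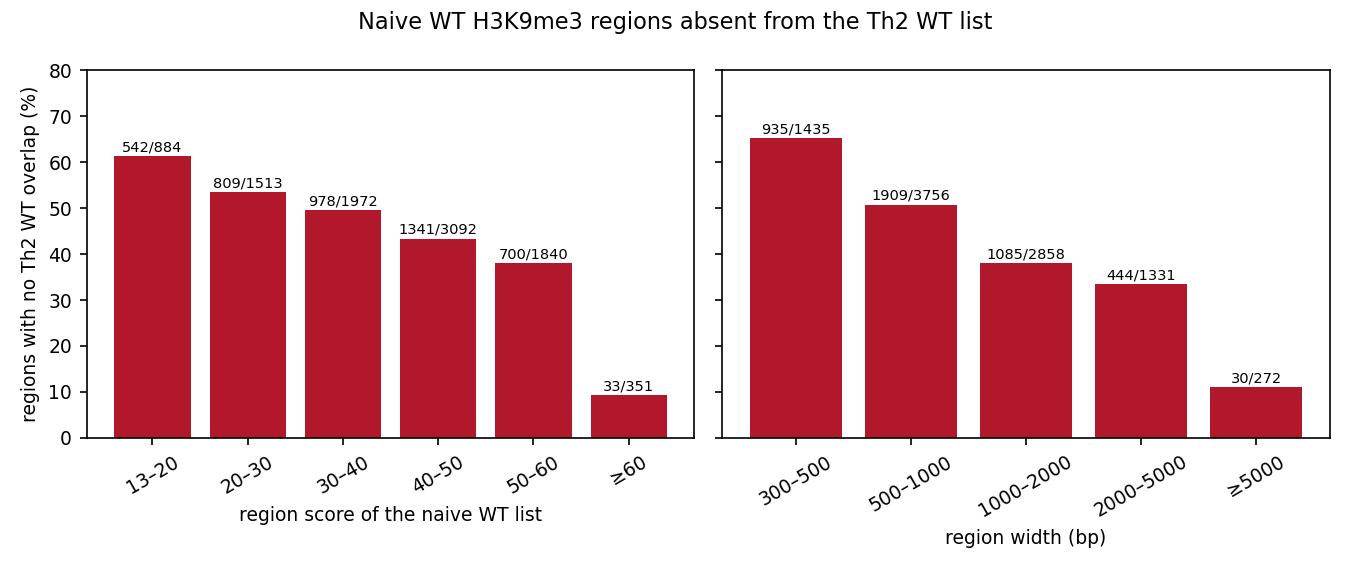
Share of naive WT H3K9me3 regions absent from the Th2 WT list (vertical axis, percent) by class of the authors' score and by class of width in bp (horizontal axes), with the number of regions on each bar. The share runs from 61.3% at the lowest scores to 9.4% at the highest, and from 65.2% of the shortest regions to 11% of the longest.

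Most Th2 WT-absent regions lay more than 10 kb from any Th2 WT region. The median distance was 46.9 kb (quartiles 16.2 and 120.5 kb). Within 1 kb lay 54 regions (1.23%), within 10 kb 751 (17.1%), beyond 100 kb 1294 (29.4%) and beyond 1 Mb 145. Distances of random sites were not computed. At the edge of the rule, 8 regions abutted a Th2 WT region with a gap of 0 bp and were counted as absent. Just inside, 10 regions shared 50 bp with a Th2 WT region and were counted as shared, and 543 shared regions were covered for less than 50% of their length. Another Th2 WT-absent region lay within 10 kb for 767 of them (17.4%).

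Between autosomes the share of naive regions absent from Th2 WT ran from 39% on chromosome 16 to 51.7% on chromosomes 5 and 15. Chromosome X held few naive regions, 26 of 37 of them (70.3%) absent. The densest 500 kb window held 15 Th2 WT-absent and 6 shared regions, on chr15:100500001-101000000, over the sodium channel gene Scn8a and the bicarbonate transporter gene Slc4a8. Next came 14 and 2 regions on chr5:150000001-150500000, where Fry lies. A window with 10 and 3, chr11:58000001-58500000, holds the interferon-induced GTPase genes Igtp and Irgm2.

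The longest region, 29350 bp at chr4:61828001-61857350 (score 31.5), overlapped Mup5, a major urinary protein gene, and was the single one of the 10 longest that lay in all 3 KO H3K9me3 lists. Next in length were a 10150 bp region at chr10:79404501-79414650, 7.73 kb from the vomeronasal receptor gene Vmn2r82, and an 8550 bp region at chr17:18561351-18569900, 3.35 kb from Vmn2r96. A 7350 bp region at chr1:195141451-195148800 lay in Cr2, the complement receptor gene of B cells, and in no other list. Cr2 RNA was 72.35, 15.07, 59.75 and 0 in naive WT and 0 in Th2 WT, and without the 3 libraries described below the difference did not pass (limma, adjusted p = 0.0972). The highest score, 68.4, belonged to chr11:115855901-115857550, 0.12 kb from the polarity gene Llgl2, followed by 68.1 for chr11:87673551-87675750 in Rnf43, a Wnt pathway ubiquitin ligase. Farthest from any Th2 WT region was a 550 bp region at chrX:87238101-87238650 in Il1rapl1, at 8876 kb.

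The Th2 WT-absent regions were scarce in the H3K9me3 lists of Setdb1 KO cells and frequent in that of Suv39h1 KO cells. In naive Setdb1 KO cells 167 of the 4403 regions (3.79%, 3.25 to 4.4) overlapped an H3K9me3 region, against 11% of shared regions, and in Th2 Setdb1 KO cells 76 (1.73%) against 7.64%. In Th2 Suv39h1 KO cells the shares were 80.5% and 98.3%. The lists differ in size, which bears on each share: the Suv39h1 KO list holds 43404 regions over 77 Mb, the Th2 WT list 12233 over 19.5 Mb, the naive Setdb1 KO list 1163 over 2.28 Mb and the Th2 Setdb1 KO list 1708 over 2.55 Mb. How much of a share comes from the depth or calling of a list was not tested, and intervals cover counting error only.

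The lower share in the Suv39h1 KO list held in each class of score and width. By score it rose from 70.8% at 13 to 20 to 87% from 50, where shared regions had 96.8% and 99.5%. By width it lay between 69.5% and 85.6%, against 91.3% to 99%. For the naive Setdb1 KO list the lower share did not hold in each class. By score, 4.61% overlapped it at 13 to 20, against 3.8% of shared regions, and 3.34% against 3.55% at 20 to 30. From a score of 50 the shares were 5.18% and 24.1%. By width they were 2.46% and 1% under 500 bp, and 16.7% and 71.5% from 5000 bp. The 857 regions (19.5%) outside the Suv39h1 KO list were shorter than the 3546 inside it (median 650 against 800 bp) and farther from Th2 WT regions (71.1 against 43.4 kb). They lay more often in a Setdb1 KO list: 10.04% against 2.28% in naive and 7.7% against 0.282% in Th2 cells. In all, 754 regions (17.1%) were in no KO H3K9me3 list, against 17 (0.324%) of the shared ones.

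**Figure D2:**
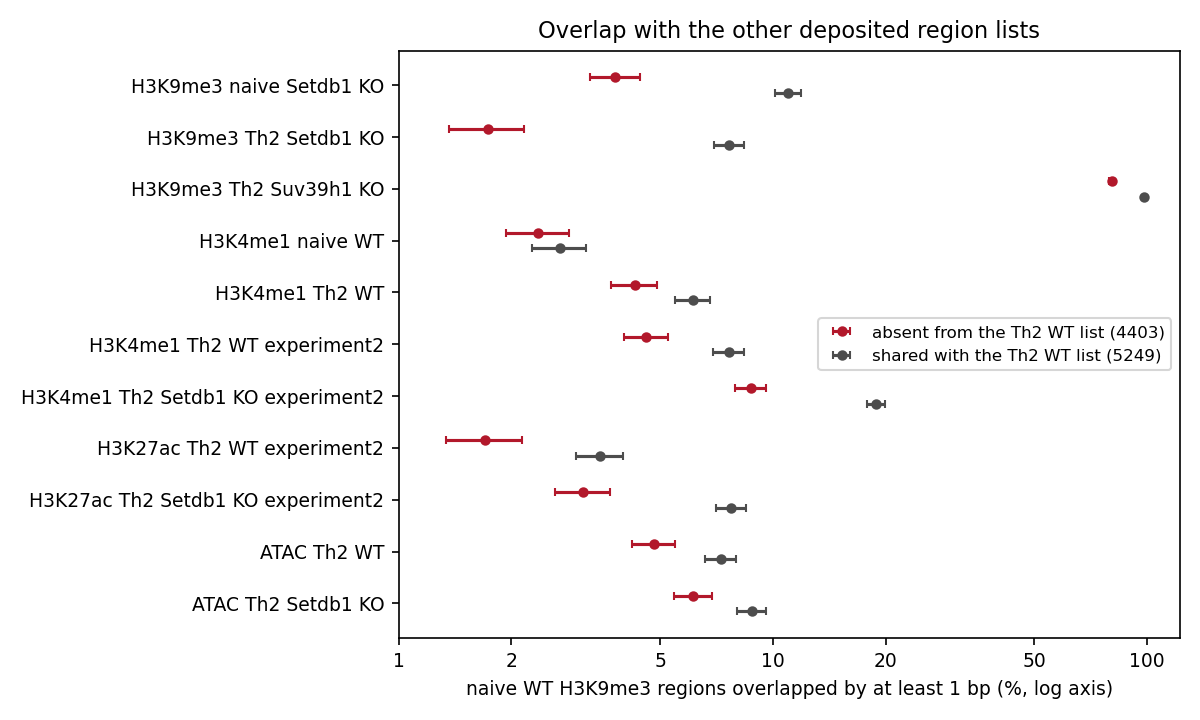
Share of Th2 WT-absent and of shared naive WT regions that overlap each other list by at least 1 bp (log axis, percent, bars are exact 95% binomial intervals). The Suv39h1 KO list holds 80.5% of Th2 WT-absent regions and the other lists at most 8.72%. In each list the share of shared regions is higher, though for H3K4me1 in naive WT the intervals overlap (2.36% and 2.69%).

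Marks of active chromatin were scarce on Th2 WT-absent regions, and 4022 of them (91.3%) lay in none of the 5 WT lists of H3K4me1, H3K27ac and ATAC, against 86.1% of shared regions. H3K4me1 lay on 2.36% in naive WT and on 4.27% in Th2 WT. For 121 regions it was in the Th2 list alone of these, for 37 in the naive list alone and for 67 in both. H3K27ac and ATAC, measured in Th2 cells with 1 sample a list, lay on 1.7% and 4.81% in WT. A second set of Th2 H3K4me1 samples, also 1 a list, gave 4.59% in WT and 8.72% in Setdb1 KO.

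Regions with an active mark in the list of 1 Th2 genotype alone were also counted, Setdb1 KO first and WT second. The counts were 210 against 28 for the second H3K4me1 set, 82 against 20 for H3K27ac and 121 against 63 for ATAC. Shared regions had 645 against 57, 261 against 36 and 181 against 101. The whole lists differed in size too, with 97093 against 76282 peaks for that H3K4me1 set, 40802 against 31251 for H3K27ac and 58955 against 92812 for ATAC, so that the ATAC list was the smaller one in Setdb1 KO. With 1 sample a list there is no replicate check of these counts.

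Of the Th2 WT-absent regions, 2360 (53.6%) overlapped a RefSeq gene and 43.4% a protein-coding one, close to 54.5% and 44.4% of shared regions. Only 53 (1.2%) touched a promoter window. Exons, introns and repeats were not annotated here. They fell on 2080 genes, 1559 of them protein-coding, which were long: their median length was 64.7 kb, against 17.3 kb for all protein-coding genes and 62.1 kb for those under shared regions. Of these genes 1650 were in the RNA table and 1348 passed the filter on low values (at least 10 in at least 2 libraries), 21 had no read in any library, 59 none in naive WT and 343 none in Th2 WT.

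Before the RNA results, the libraries themselves need a description. Depth was 10.0 to 18.5 M reads a library in naive cells, 10.1 to 13.3 M in Th2 WT and 36.3 to 44.7 M in Th2 Setdb1 KO. Naive WT replicates 1 and 3 and naive Setdb1 KO replicate 2 stood apart, since at equal depth they held reads of 20487, 24350 and 21084 genes, where all other libraries held 14857 to 17885. Setdb1 itself was 1310 ± 66.4 normalised read counts (SD, n = 4) in naive WT and 1006 ± 87.2 (n = 3) in naive Setdb1 KO. In Th2 cells it went against the label, 822.6 ± 121 in WT and 8485 ± 503 in KO (n = 3 each), so those are called the libraries labelled Setdb1 KO. The Th2 state matched its label: Il4 had no reads in naive WT and 1957 in Th2 WT, and Gata3 603.4 and 2169. T cell markers were present in every library (10 of 10 genes above 0, summed level 62405 to 110832 in WT), while B cell markers summed to 16.1 to 436 in naive WT and 68.6 to 119.7 in Th2 WT, where 6 of 11 were at 0. CD8 markers summed to 443 to 569 and 103 to 202, NK and innate lymphoid markers to 863 to 1349 and 18791 to 22512 (4 of 9 at 0 in Th2 WT), and myeloid markers to 100 to 320.5 and 1362 to 1716 (4 of 10 at 0). The NK sum in Th2 WT was mostly Gzma, at 14271, 10953 and 11443, with Ncr1 and Klrk1 at 0. The part of other cells in the values of Cr2, Prf1 and other genes was not tested. The labels name no separate animals for the replicates, and every p then reflects only how far these libraries scatter, which may be technical.

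The first comparison asked how RNA of the genes under these regions differed between Th2 WT and naive WT. More of them were lower than higher in Th2 WT: of 1348 genes, 658 fell and 290 rose (limma, Benjamini-Hochberg adjusted p under 0.05), or 48.8% and 21.5%. Over all 17254 genes 33.1% fell and 32.8% rose. The median log2 difference was -0.68, against -0.14 over all genes. Genes under shared regions alone had 39.4% lower, 33.3% higher and a median of -0.20. Without the 3 libraries that stood apart the counts were 603 lower and 303 higher, with a median of -0.51 against 0.03 over all genes.

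Within classes of gene length the share of lower genes was again above that of genes under no naive region, but at 10 to 30 kb it was close to that of genes under shared regions alone (46.4% and 45.6%, against 32.8% under no region). Among protein-coding genes of 30 to 100 kb, 50.3% of the genes under Th2 WT-absent regions were lower, 39.2% of those under shared regions alone and 36.5% of those under no naive region. In the shortest class, under 10 kb, it was 55% (40 genes) against 32.5% and 27%, and from 300 kb 43.2% against 24.5% and 14.2%. In that last class the median did not follow the counts, at -0.96 against 0.35 and -1.47. Among genes with a mean of at least 1000 normalised counts 59.8% were lower, against 45% and 36.4%. Genes whose region was absent from the Suv39h1 KO list had 139 of 246 lower (56.5%, median -1.31). Genes with 3 or more Th2 WT-absent regions had 42 of 79 lower (53.2%). Among the 23 tested genes whose promoter window was touched 8 rose and 5 fell.

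**Figure D3:**
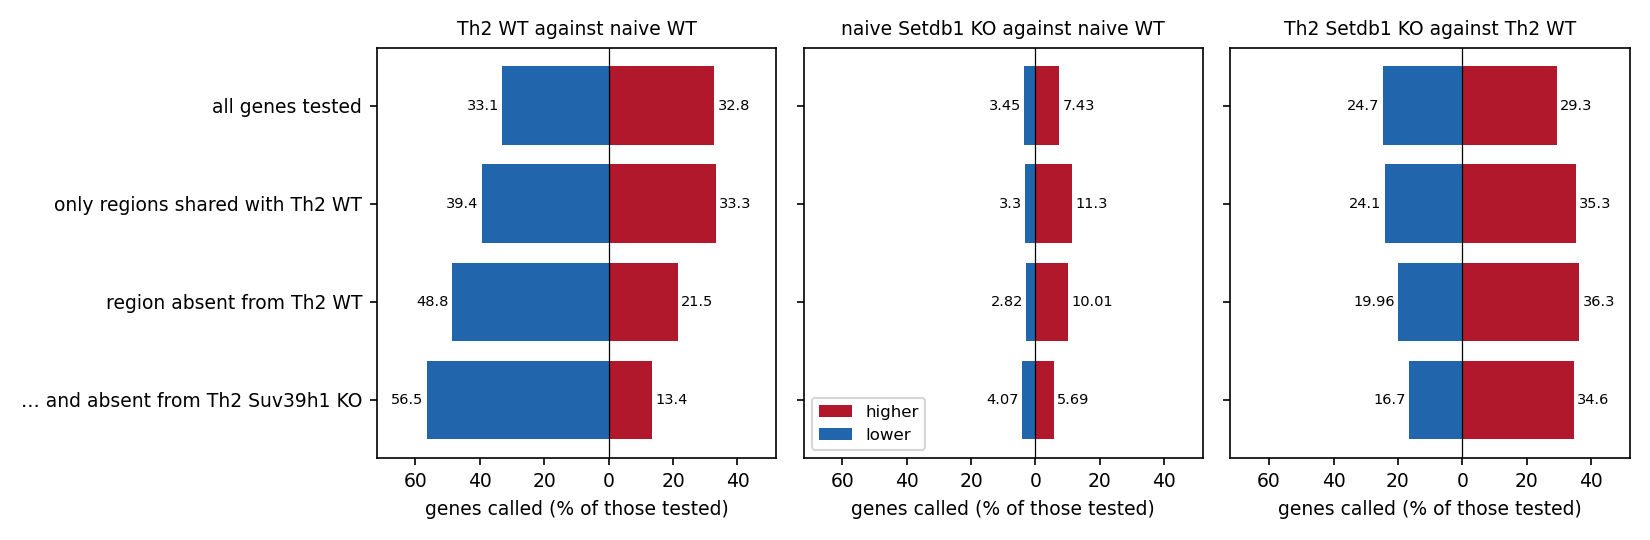
Percent of tested genes called higher and lower (limma, adjusted p under 0.05) in each of the 3 comparisons, for genes under Th2 WT-absent regions, genes under shared regions alone, all genes tested and genes whose region is also absent from the Suv39h1 KO list. In Th2 WT against naive WT 48.8% of genes under Th2 WT-absent regions are lower, against 33.1% of all genes.

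Few genes of any kind lay under these regions, 2080 of 49554 RefSeq genes and 1348 of the 17254 tested, and the fixed T cell lists are read against that. None of 23 genes of the Th2 programme, none of 15 activation genes and none of 271 T cell receptor segments overlapped one. Shared regions overlapped none of these either. Of 26 Th1 genes 3 did, and all 3 fell in Th2 WT: Stat4, which transmits the IL-12 signal, the IL-18 receptor gene Il18r1 and the perforin gene Prf1. In the whole Th1 list 9 fell and 13 rose. Of 21 genes of naive and quiescent T cells the transcription factor genes Lef1 and Bach2 were overlapped, and both fell, as did 18 of the 21.

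Prf1 had 668.6, 926.1, 555.9 and 653.8 normalised counts in the 4 naive WT libraries and 10.08, 16.7 and 7.484 in Th2 WT, a log2 difference of -5.86 ± 0.59 (SE, limma, adjusted p = 3.1e-08). Il18r1 had 1978, 1589, 2345 and 1439 in naive WT and 70.57, 107.6 and 197.1 in Th2 WT (log2 -3.97 ± 0.31). Lef1 had 8726 to 12820 in naive WT and 1373, 1490 and 1557 in Th2 WT (log2 -2.79 ± 0.17). Naive and Th2 libraries did not overlap for any of the 3 genes. The Lef1 region, 1900 bp at chr3:131122501-131124400, also lay in the H3K4me1 lists of both cell states. In bulk RNA, fewer cells of a type and less RNA per cell cannot be told apart.

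Interferon-induced genes were among those that fell. Of 28 genes of the fixed interferon list 5 were overlapped, and all 5 fell in Th2 WT with a median log2 of -5.38, in a list where 21 of 28 fell. They are Rtp4, a chaperone of receptor transport, Ifit2 and Ifit3, which bind viral RNA, Xaf1, a regulator of cell death, and Oasl1, an oligoadenylate synthetase-like protein. The Ifi200 family, encoded in a cluster on chromosome 1, had Ifi206, Ifi208, Ifi213 and Mndal overlapped. Close paralogs share sequence, and strand was not stated for the counting, so single values of the Ifi200 and Ifit genes are uncertain.

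Ifi208 had 4548, 6566, 7056 and 5205 normalised counts in naive WT and no reads in any Th2 WT library, at least 918-fold lower against a floor of 3 reads per library. Ifi206, at 1368, 2770, 2303 and 1461, was also at 0 there and at least 310.3-fold lower. Ifi213 was at least 761-fold and Rtp4 at least 178-fold lower. Mndal fell from 5270 ± 1161 to 4.809 ± 2.71 (log2 -9.92 ± 0.32, limma, adjusted p = 1.3e-15). These genes were thus abundant in naive cells while a region of H3K9me3 lay in their body.

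These 9 genes and Ifit1bl1 held 12 Th2 WT-absent regions, of which 5 lay in the naive WT H3K4me1 list. Those of Ifi206 (550 bp, chr1:173475751-173476300), Ifi213 (1750 bp, chr1:173583551-173585300) and 1 of the 2 in Ifi208 (2000 bp, chr1:173687401-173689400) lay in the naive WT H3K4me1 list and in no active list of Th2 cells. The second Ifi208 region, those of Ifit2 and Oasl1, both of Rtp4 and that of Mndal (4000 bp, chr1:173855401-173859400) lay in no active list. On chromosome 19 the Ifit3 region (550 bp, chr19:34585951-34586500) and the Ifit1bl1 region (6250 bp, chr19:34592601-34598850) were the others in the naive WT H3K4me1 list. The former also lay in the Th2 WT H3K27ac list and the latter in both Th2 WT H3K4me1 lists, while the Xaf1 region lay in both Th2 WT H3K4me1 lists and not in the naive one. Rtp4 held 2 regions, of 450 and 950 bp, and both were also in the Suv39h1 KO list.

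Ifit1bl1 fell from 3417 ± 739.8 to 2.474 ± 4.29 and Ifit3 from 899.3 ± 398 to 0.6721 ± 1.16 (log2 -9.16 ± 0.49). Ifit2 kept a measurable level in Th2 WT, with 4531, 4092, 5338 and 4852 in naive WT against 127, 122.5 and 89.81. Xaf1 fell by 3.27 and Oasl1 by 2.56 on the log2 scale (limma, adjusted p = 1.21e-08 and 1.88e-06).

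**Figure D4:**
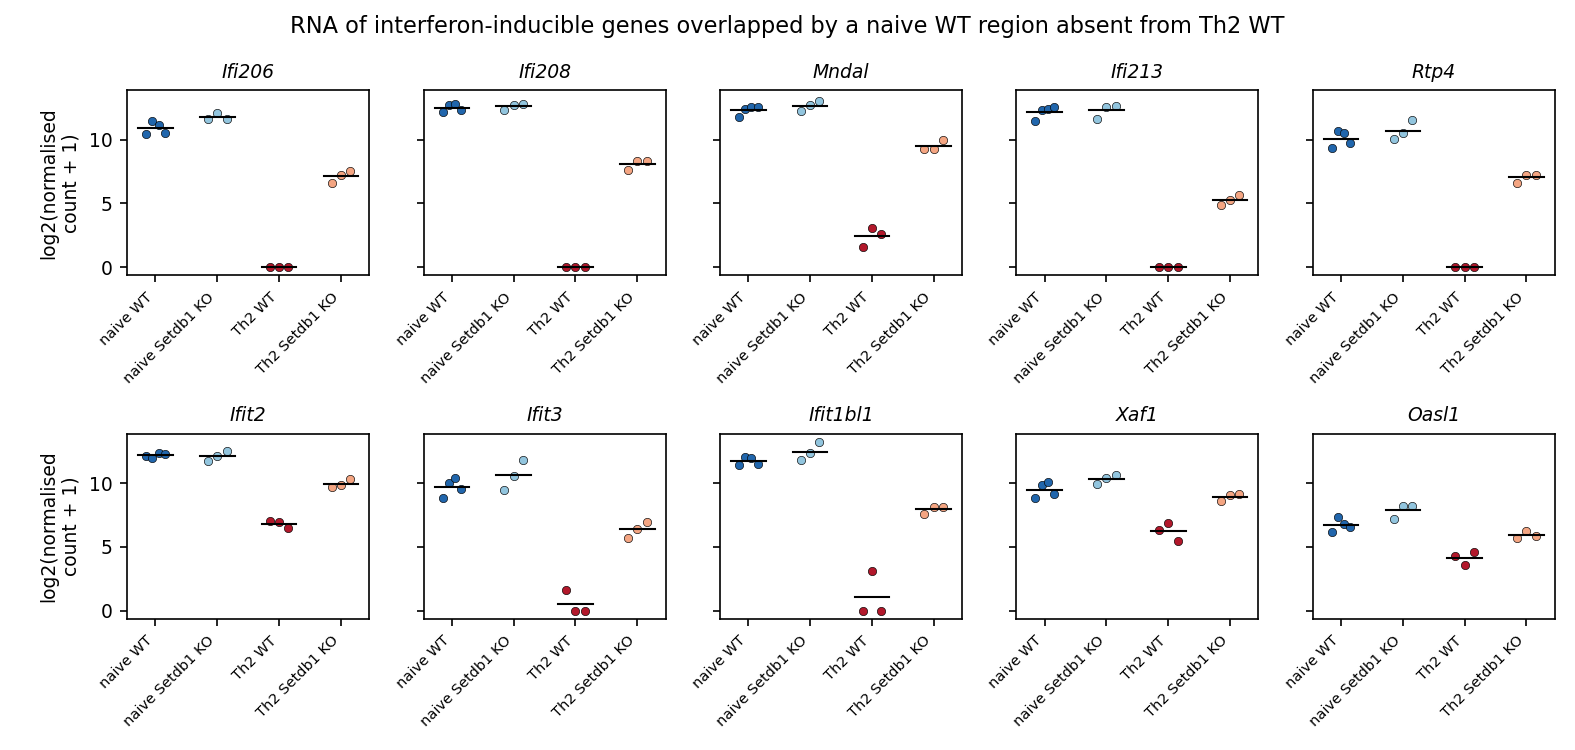
Log2 of the normalised read count plus 1 (vertical axis) of 10 interferon-induced genes under Th2 WT-absent regions, with 1 point per library and a bar at the mean of each of the 4 groups. For all 10 genes the Th2 WT libraries lie below the naive WT libraries, and most of those labelled Th2 Setdb1 KO lie between the 2, with Xaf1 and Oasl1 reaching into the naive range.

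Other genes with no reads in Th2 WT were Slc16a5, a monocarboxylate transporter (1167 ± 144 in naive WT, at least 183-fold lower), and Slc28a2b, a nucleoside transporter (1663 ± 268, at least 261-fold lower). Tox, a nuclear factor of T cell development, fell from 973.4 ± 111 to 0.6721 ± 1.16. Its body held regions of 1900 and 2750 bp that were in no other list. Fry, which encodes a large scaffold of the cell cortex, held 13 Th2 WT-absent regions over 379 kb, 10 of them in the Suv39h1 KO list. It had 607.5, 741.1, 677.2 and 586.7 in naive WT and 58.47, 38.97 and 42.41 in Th2 WT.

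The genes that rose were fewer, and many were nearly silent in naive cells. Azin2, a regulator of polyamine synthesis, had no reads in naive WT and 427.5, 324.7 and 266.9 in Th2 WT, at least 84.3-fold higher. Lamc1, a laminin subunit, rose from 16.07 ± 13.6 to 2496 ± 319.9 (log2 7.60 ± 0.62), Fgf2, a growth factor, by 7.27 ± 0.69, and Entpd1, which encodes the ectonucleotidase CD39, by 7.04 ± 0.63. The regions of Azin2 (400 bp) and Lamc1 (850 bp) lay in the H3K4me1 and H3K27ac lists of Th2 WT and not in the H3K4me1 list of naive WT, whereas that of Entpd1 lay in no active list. Rora, a nuclear receptor of Th17 and innate lymphoid cells, rose by 1.91 on the log2 scale (limma, adjusted p = 3.24e-07), and Ikzf2 and Bcl6, regulators of regulatory and follicular helper T cells, fell.

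Promoters under Th2 WT-absent regions were held by genes of both directions. Ptprs had 78.59, 102.7, 74.23 and 86.92 in naive WT and 1381, 1457 and 1542 in Th2 WT (log2 4.09). Its region (1100 bp, chr17:56476351-56477450, score 60.5) lay in the H3K4me1 list of naive WT, in the first but not the second of Th2 WT, and in the Th2 H3K27ac and ATAC lists. Nectin2 had 0, 0, 21.73 and 0 in naive WT and 235.9, 167 and 187.1 in Th2 WT (log2 6.49), and its 350 bp region at chr7:19749501-19749850 lay in H3K27ac and ATAC lists of Th2 WT and not in the Suv39h1 KO list.

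Eea1, an endosome tether, rose from 186.1 ± 7.91 to 4201 ± 708 (log2 4.48 ± 0.12, limma, adjusted p = 1.43e-16), and the 650 bp region that touched its promoter window, over 38 bp, lay in all active lists of Th2 WT. Ipcef1 moved the other way, from 6151, 7240, 6808 and 7016 to 18.15, 12.99 and 57.38, a log2 difference of -8.09 ± 0.31. Pfdn2 and Pdzd8 also fell, to 163.6 and 1083. The Pfdn2 region lay in all active lists and in both Setdb1 KO H3K9me3 lists. That of Pdzd8 lay in the naive WT H3K4me1 list and in the H3K27ac and ATAC lists of both Th2 genotypes. The Ipcef1 regions lay in no active list. H3f4 had 0 to 1.811 in naive WT and 0 to 4.033 in Th2 WT, a level too low for a direction.

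Regions with both H3K27ac and ATAC in Th2 WT numbered 43 (0.977%), and 78 carried both in the libraries labelled Th2 Setdb1 KO. Among the genes of the former Crlf2, the receptor for the cytokine TSLP, rose by 2.20 on the log2 scale. The chloride cotransporter gene Slc12a7 (log2 -2.70 ± 0.16) and Spn, which encodes CD43 (log2 -1.04), fell.

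**Figure D5:**
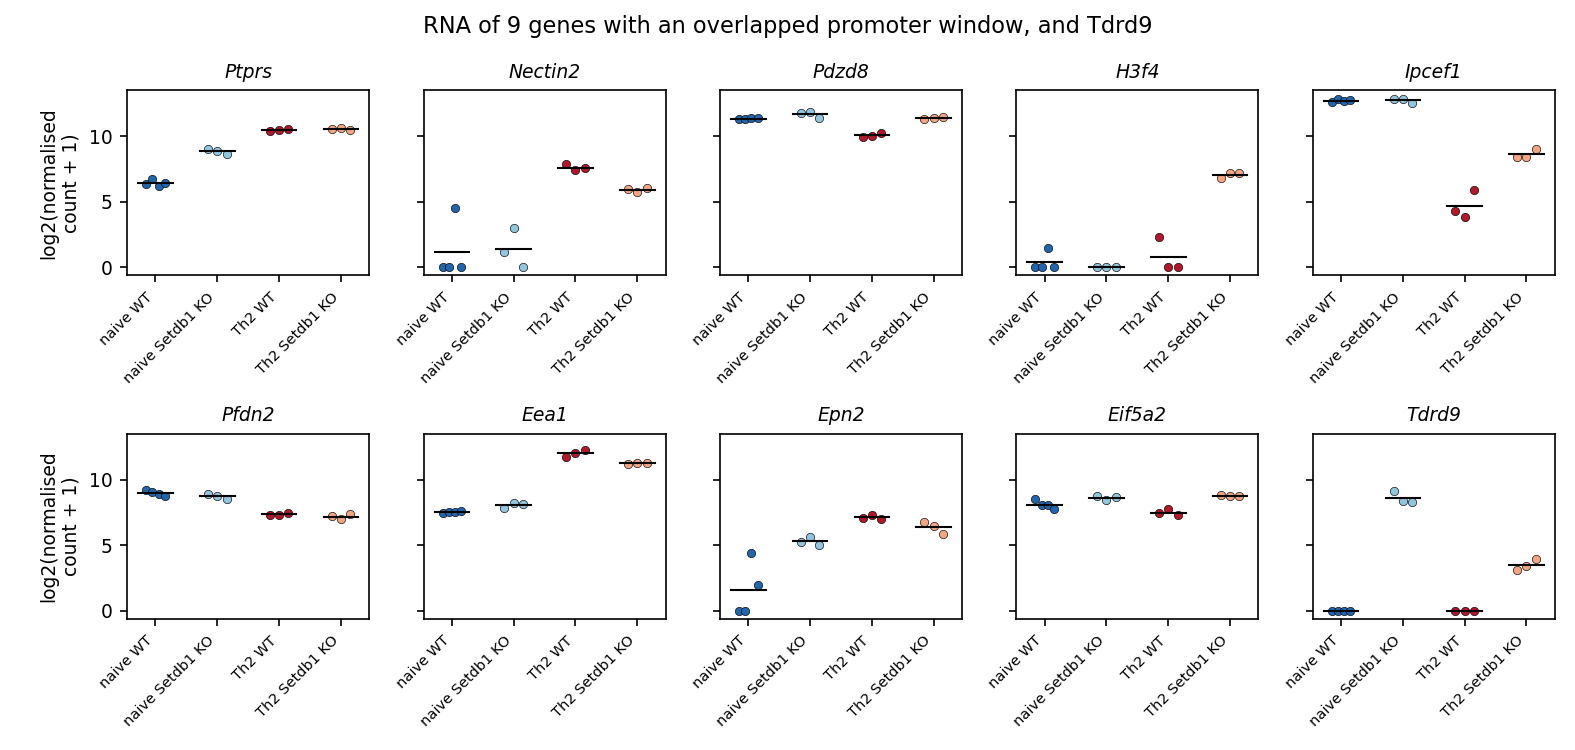
Log2 of the normalised read count plus 1 (vertical axis) of 9 genes whose promoter window a Th2 WT-absent region overlaps, and of Tdrd9, with 1 point per library and a bar at the mean of each of the 4 groups. Ptprs and Nectin2 are higher in Th2 WT than in naive WT, Ipcef1 is lower, and H3f4 is near 0 outside the libraries labelled Th2 Setdb1 KO.

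The next comparison, naive Setdb1 KO against naive WT, used the same naive WT libraries as the one before. Of the 1348 genes under Th2 WT-absent regions 135 rose and 38 fell (limma, adjusted p under 0.05), or 10.01% and 2.82%. Over all genes 7.43% rose and 3.45% fell, and under shared regions alone 11.3% and 3.3%. Without the 3 libraries that stood apart 59 rose and 11 fell, or 4.75% and 0.886%, and over all genes 4.75% and 1.27%. Without naive Setdb1 KO replicate 1 the counts were 73 and 19 (5.43% and 1.41%), and over all genes the shares were 4.7% and 2.16%. Without its replicate 2 they were 75 and 18 (5.67% and 1.36%), and over all genes 4.47% and 1.89%. With naive WT replicate 1 left out, 24 fell, or 1.82% against 2.61% over all genes.

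Resf1, a gene named for retroelement silencing, had the highest level among those that rose. It had 4797, 5436, 5167 and 4220 in naive WT and 55551, 65043 and 42442 in naive Setdb1 KO, so that its log2 value rose by 3.45 ± 0.14 (limma, adjusted p = 7.33e-12). Its region was 4450 bp long (chr6:149330901-149335350), 2.15 kb from a Th2 WT region, and lay in the Suv39h1 KO list and in neither Setdb1 KO list. Atf7ip, a partner that stabilises SETDB1, rose by 2.04 on the log2 scale, and its region, chr6:136609751-136612650, was likewise absent from both Setdb1 KO lists.

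Tdrd9, which encodes a helicase that protects germ cells from retrotransposons, had 0 reads in each naive WT library and 563.7, 328.9 and 314.1 in naive Setdb1 KO. It held 3 regions, the longest 4050 bp (chr12:112018951-112023000), in neither Setdb1 KO H3K9me3 list and inside the H3K4me1, H3K27ac and ATAC lists of Th2 Setdb1 KO but in none of WT. In Th2 cells, where these marks were measured, Tdrd9 RNA was low, at 7.549, 9.85 and 14.49 in the libraries labelled Setdb1 KO and 0 in WT. Cacna1b, a neuronal calcium channel gene, had 14.97, 0, 19.92 and 0.9447 in naive WT and 1167, 1170 and 887.3 in naive Setdb1 KO. The naive groups of libraries did not overlap for either gene. In the libraries labelled Th2 Setdb1 KO, Cacna1b had only 28.21, 23.28 and 26.98.

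Dnah8, a dynein heavy chain gene with 9 Th2 WT-absent and 5 shared regions, had 3545, 3954, 4545 and 4881 in naive WT and 14887, 16740 and 13731 in naive Setdb1 KO (log2 1.84). All 9 regions lay in the Suv39h1 KO list and none in a Setdb1 KO list. Zfp53, a KRAB zinc finger gene, rose by 2.32 ± 0.11, and Ptprs, whose promoter is printed above, rose to 534, 463.5 and 408.1 (log2 2.44). In the zinc finger list 68 of 372 genes were overlapped, fewer than the 118 under shared regions. Of the 62 tested among the 68, 4 rose and 5 fell, in a list where 18 of 328 rose and 12 fell. Pde2a, a phosphodiesterase, fell from 1441, 1158, 974.1 and 977.8 to 122.7, 84.66 and 66.49 (log2 -3.65 ± 1.00, limma, adjusted p = 0.0227). It no longer passed once naive WT replicate 1 or any 1 of the 3 naive Setdb1 KO libraries was left out (adjusted p from 0.0545 to 0.0805), nor without the 3 libraries that stood apart (0.187).

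In the interferon list 12 of 28 genes rose and none fell in naive Setdb1 KO, with a median log2 difference of 0.93. Its 5 overlapped genes had a median of 0.82, and of these Oasl1 rose (log2 1.16 ± 0.35, limma, adjusted p = 0.0352). Ifit3 (0.91 ± 0.49), Xaf1 (0.82 ± 0.31), Rtp4 (0.65 ± 0.36) and Ifit2 (-0.07 ± 0.18) did not pass, and the Ifi200 genes Ifi208 (log2 0.11 ± 0.29, adjusted p = 0.886), Ifi213 (0.10 ± 0.31) and Mndal (0.32 ± 0.32) did not pass either. Ifi206 rose by 0.87 ± 0.28 (limma, adjusted p = 0.0496). Without the 3 libraries that stood apart neither Oasl1 (adjusted p = 0.416) nor Ifi206 (0.452) passed. Leaving out naive WT replicate 1 or 4, or naive Setdb1 KO replicate 2 or 3, also ended both calls (adjusted p from 0.059 to 0.246). So did leaving out naive WT replicate 3 for Oasl1 (0.0542) and naive Setdb1 KO replicate 1 for Ifi206 (0.0983).

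The last comparison set the libraries labelled Th2 Setdb1 KO against Th2 WT, whose libraries also served in the first. Of the 1348 genes under Th2 WT-absent regions 489 rose and 269 fell, or 36.3% and 19.96% (limma, adjusted p under 0.05), where over all genes 29.3% rose and 24.7% fell. Genes under shared regions alone had 35.3% higher, near that of the Th2 WT-absent regions, and 24.1% lower. The median log2 difference was 0.27, against 0.13 over all genes. The share of higher genes depended on level: with a mean of at least 1000 it was 50.8% against 38.6% for genes under no naive region, at 100 to 1000 37% against 37.4%, at 10 to 100 31.8% against 26.1% and under 10 7.69% against 10.1%. By length it was 40% against 25.7% under 10 kb, 37% against 33% at 10 to 30 kb, 38.1% against 38.7% at 30 to 100 kb, 37.5% against 30.9% at 100 to 300 kb and 27% against 15.4% from 300 kb.

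In this comparison interferon-induced genes rose. All 5 overlapped genes of the interferon list rose (median log2 3.13), as did 24 of the 28 in the list. Ifi208 had 190.7, 318.3 and 323.7 in the libraries labelled Setdb1 KO and none in WT, at least 43.6-fold higher, and Ifi206 was at least 22.7-fold and Rtp4 at least 20.8-fold higher. Mndal, at 2.016, 7.422 and 4.989 in WT, had 596.8, 605.8 and 979.2 (log2 7.05 ± 0.34), and Ifit2 rose from 113.1 ± 20.3 to 1005 ± 247 (log2 3.13 ± 0.19). These levels stayed below those of naive WT for Ifi208, Mndal and Ifit2 in every library. The myeloid marker list, which could bear on genes of innate defence, summed to 1362 to 1716 in Th2 WT and 4722 to 5523 in the libraries labelled Setdb1 KO, with 4 and 3 of 10 genes at 0. Most of that sum was Adgre1 (1482, 1243 and 1602 against 4659, 5334 and 5438), 1 of 7 tested genes rose, and Cd68 was 139.1, 109.5 and 94.8 against 51.65, 70.29 and 62.45. The part of such cells in these differences was not tested.

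H3f4 had 4.033, 0 and 0 in Th2 WT and 112, 143.7 and 146.4 in the libraries labelled Setdb1 KO (log2 6.29). The region over its promoter, printed above, lay in the H3K4me1 list of Th2 Setdb1 KO and in none of WT. Ipcef1 rose from 18.15, 12.99 and 57.38 to 348.5, 339.8 and 519.6 (log2 3.98 ± 0.33), against 6804 ± 469.6 in naive WT. Pdzd8 rose by 1.31 on the log2 scale, while Nectin2, at 62.78, 51.49 and 65.45, lay below every Th2 WT library but did not pass (log2 -1.69 ± 0.94, limma, adjusted p = 0.141). It passed in a fit of the 2 groups alone (adjusted p = 9.89e-05) and with a pseudocount of 5 (0.0113). Ptprs, at 1471, 1562 and 1458, overlapped the WT libraries.

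Several other genes moved widely. Cfap53, a protein of cilia, rose from 26.57 ± 11.8 to 2896 ± 340.2 (log2 6.82 ± 0.86), Tox from 0.6721 ± 1.16 to 121 ± 52.8, and Nlrp1b, an inflammasome sensor, from 0.6721 ± 1.16 to 125.9 ± 4.44. Resf1 rose again, to 24718, 25988 and 27849 (log2 4.11 ± 0.14), and Dnah8 by 2.50. Stat4 rose from 1143, 1073 and 992.9 to 3605, 2933 and 3684 (log2 1.67), with Il18r1 (log2 0.66 ± 0.33, adjusted p = 0.101) and Prf1 (1.23 ± 0.63, adjusted p = 0.106) not passing. Ikzf2, the gene of Helios, rose by 3.07. In the zinc finger list 23 of 62 tested overlapped genes rose and 9 fell, where 130 of all 328 rose and 57 fell.

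Among genes that fell, Fam162a, a mitochondrial protein induced by hypoxia, went from 13562, 12035 and 11695 to 734.7, 774.6 and 784.9 (log2 -4.02 ± 0.14, limma, adjusted p = 7.22e-14). Rab34, a GTPase of the Golgi, fell by 5.69, Galnt9, a glycosyltransferase, by 5.88 and Prss12, a secreted protease, by 4.62 on the log2 scale. Rora and Bcl6 also fell, and Lef1 did not pass (log2 0.25 ± 0.18, adjusted p = 0.269).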

How the data were processed

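The members, gene lists and comparisons were chosen with earlier results of these data known, and the promoters shown were picked after their genes' values were seen. Per the submitters' processing notes, cutadapt 1.3, TopHat2 2.0.5, BWA 0.7.10, MACS2 2.1.0, DESeq and the mm10 genome were used. The sources used here do not state which caller made the H3K9me3 lists or the scale of their score. Each region's score was set by the authors and served to describe and filter regions. The ratio values (fold enrichment) and the -log10 p values that the authors deposited beside some peaks were not used. The signal values of the RNA table are the authors' read counts after division by each library's size factor, as found from the values: 100% of them were whole reads within 0.01. The table held 2 identical copies of 39179 genes, and 1 was used.

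Regions overlapped when they shared at least 1 bp. Genes and promoter windows (250 bases before to 50 after a start) came from RefSeq (GRCm38.p6), and 31916 of its 49554 genes matched the RNA table by symbol or synonym. Ifi206, Ifi208, Ifi213 and Slc28a2b stand there as Gm4955, Pydc3, Pydc4 and Gm14085, Ifit1bl1 as Gm14446, H3f4 as Gm12260, Cfap53 as Ccdc11, Nectin2 as Pvrl2 and Resf1 as 2810474O19Rik. RNA was tested with limma 3.58.1 (trend) in R 4.3.3 on log2 of the value plus 1, with all 18 libraries in 1 fit, including 5 of Th2 cells moved to IL-12 on day 6. Benjamini-Hochberg adjustment ran over the 17254 genes that reached 10 in at least 2 libraries. Fold changes are on that scale and understate low genes. Where a group was at 0, 3 reads per library stood in as its floor, a limit for counting error alone. On simulated data 87% to 93% of genes changed by 1 on the log2 scale were recovered and at most 0.405% of unchanged genes called. Whether these rates hold for the real libraries, including the naive ones that stood apart, was not tested.

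The named genes are, per comparison, the 8 with the widest change each way (adjusted p under 0.05, mean of at least 50, groups that do not overlap, no predicted genes), those under the 10 longest regions, the 10 with the most regions, those with a touched promoter window, up to 4 called members of each of 27 lists, and 6 fixed genes. The text names a selection of them. Genes of regions with H3K27ac and ATAC were added after their values were seen. Other tools (edgeR 4.0.16 and DESeq2 1.42.0 on the recovered reads), scalings, filters, overlaps and left-out libraries were tried as alternatives.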

Additional observations from a re-analysis of the deposited data

Results flagged for a closer look

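In 89 named genes, 1 naive WT library lay far from the other 3 in 10 cases, by Dixon's test at the 95% level. Chance alone flags about 1 in 20 groups of continuous values, but in 5 of the 10 cases (Ifng, H3f4, Olfm2, Mup5 and Nectin2) the other 3 libraries were at 0, where a single read is enough and that rate does not hold. In 9 of the 10 it was replicate 3, the library with the most genes detected at equal depth. Its value was 1.811 normalised counts for Ifng and for H3f4, 10.86 for Olfm2, 19.92 for Epn2 and for Mup5, 21.73 for Nectin2, 43.45 for Aldh1l2 and for Scn8a, and 1356 for Zfp53. For Fgf2 it was replicate 1, at 23.7.

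For 8 genes every naive Setdb1 KO library lay on one side of every naive WT library, and every library labelled Th2 Setdb1 KO on the other side of every Th2 WT library. That difference between the cell states was not tested. The log2 differences in naive and Th2 cells were 3.70 and -0.73 for Epn2, 2.39 and -0.76 for Coro2a, 0.97 and -1.25 for Bach2, 0.54 and -0.76 for Eea1 and 0.32 and -0.37 for Ifnar2. With the opposite signs they were -1.31 and 0.42 for Rnf216, -1.02 and 0.69 for Klhl5 and -0.38 and 3.37 for Setdb1. Not all of these differences were firm: that of Epn2 in Th2 cells did not pass in the main fit. In naive cells Bach2, Coro2a and Ifnar2 no longer passed without naive Setdb1 KO replicate 1 or 2 (limma, adjusted p from 0.0541 to 0.153). Ifnar2 also did not pass without naive Setdb1 KO replicate 3 (limma, adjusted p = 0.0522) or without naive WT replicate 2 (0.0547) or 4 (0.111). Setdb1 in naive cells did not pass without naive Setdb1 KO replicate 2 (0.152) or 3 (0.0606). It also did not pass in a fit of the 2 groups (0.0647) or with no filter (0.0625).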

How the results depend on the processing

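Apart from the order of the ATAC shares given below and of some shares of lower genes, no result changed its direction under the alternatives run. DESeq2 and the fit with no filter took in more genes (32062 and 32063). With both, 16.8% of genes under Th2 WT-absent regions were higher in Th2 WT, against 17.1% and 17.2% over all genes. The main fit had a wider gap there, 21.5% against 32.8%. The shares lower in Th2 WT stayed apart, at 40.3% and 39.3% against 17.3% and 17.6%. In Th2 Setdb1 KO 17.4% and 15.5% of genes under Th2 WT-absent regions were then lower, against 14.2% and 12.6% over all genes. The main fit had the opposite order, 19.96% against 24.7%. In naive Setdb1 KO the lower shares were 3.62% and 1.53%, against 2.75% and 1.37%, where the main fit had 2.82% against 3.45%. The number of Th2 WT-absent regions was 1871 when naive regions under the median score were left out, and within 1.5 times the main count otherwise. Shares of these regions in other lists moved with the overlap rule. With at least 50% of the region covered they were 2.73% for H3K9me3 in naive Setdb1 KO and 77.6% in Suv39h1 KO. For H3K4me1 they were 1.2% in naive WT, 2.45% in Th2 WT, 2.59% in the second Th2 WT set and 4.02% in its Setdb1 KO. They were 0.908% and 1.32% for H3K27ac and 1.02% and 0.977% for ATAC, in WT and Setdb1 KO, so that the order of the ATAC shares turned. With peaks of the other list at or above its median score they were, in the same order, 1.73%, 49.6%, 1.16%, 2.13%, 2.84%, 5.36%, 0.908%, 1.73%, 2.41% and 3%, and 1.14% for H3K9me3 in Th2 Setdb1 KO. With members at or above the median score that share was 1.07%, the Suv39h1 KO share 84.7% and the ATAC share in Setdb1 KO 7.16%.

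Counts of genes moved with the assignment of genes to regions, which also changed the number tested. Genes within 10 kb (2375 tested) gave 586 higher (24.7%) and 1048 lower (44.1%) in Th2 WT and 81 lower (3.41%) in naive Setdb1 KO. In Th2 Setdb1 KO they gave 821 higher (34.6%) and 526 lower (22.1%). Regions at or above the median score left 711 tested genes, with shares near the main ones. In the same order, 150 (21.1%) rose and 345 (48.5%) fell, then 76 (10.7%) and 21 (2.95%), then 259 (36.4%) and 141 (19.8%). The naive Setdb1 KO counts were the least steady. A fit of the 2 groups gave 88 higher (7.04%, against 4.76% over all genes). The 968 tested genes with no shared region gave 82 higher (8.47%). Without the 3 libraries that stood apart (chosen after seeing the data) 59 were higher and 11 lower. DESeq2 gave 59 lower and the fit with no filter 25. Leaving out 1 library gave 73 to 197 higher (5.43% to 14.6%) and 18 to 41 lower (1.36% to 3.05%). Over all genes these shares ran from 4.47% to 9.67% and from 1.89% to 4.85%. The cause of these moves was not tested.

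The replicate numbers gave no sign of pairing: deviations of libraries with the same number correlated at -0.411 to 0.0191. In naive cells, where 3 libraries stood apart, those with different numbers correlated at -0.408 to 0.474. These values therefore cannot decide whether libraries share an animal. With the replicate block the counts higher and lower were 277 and 682 in Th2 WT, 113 and 36 in naive Setdb1 KO and 481 and 272 in Th2 Setdb1 KO. The sources used here do not state the depth of the peak lists, so a region missing from a list may lie below its detection.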
